A study of Mus musculus with 20 samples.

Results

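Mouse blastocysts that had been incubated at the 8-cell stage in medium without calcium and magnesium (CMF) were compared with blastocysts from untreated embryos. The 8 arrays of these groups, 4 per group with replicates numbered 2 to 5 in each, were taken by their titles from the 20 arrays of a study of embryo biopsy. Each array held RNA of a pool of 20 embryos of the CF1 strain, so that a value is an average over a pool and differences between single embryos were not measured. CMF embryos spent 5 min at 37 °C in CMF medium, had no zona opening and no cell removal, and were then cultured one by one in drops until 96 h after the hCG injection, when all pools were collected. Untreated embryos had no such exposure, and whether CMF embryos also passed through the ion-free saline in which biopsies were done is not stated. The other groups were embryos given acid Tyrode's solution (acid), which opens the zona pellucida, embryos given CMF medium and acid (CMF_acid), and biopsied embryos. The biopsied embryos of this study also spent 5 min in CMF medium. The comparison asks whether this brief loss of the ions that hold the blastomeres together is visible in the transcripts of the later blastocyst. Nothing in the labels says that pools came from separate collections, so p-values measure the spread between these pools, which may be technical.

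E-cadherin, the adhesion molecule of the early embryo, binds its partner on the next cell only when calcium holds its extracellular domain in shape. At the 8-cell stage this binding drives compaction, in which blastomeres flatten against each other and become polarised. Inside the cell, catenins tie E-cadherin to actin. Later, tight junctions and desmosomes seal the trophectoderm, the outer epithelium, and the sodium pump and aquaporins move fluid inwards to form the cavity. Withdrawing calcium and magnesium opens the contacts without enzymes, and the embryo compacts again when the ions are returned.

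Before the comparison, the pools were checked against their labels. The trophectoderm keratin Krt18 and the inner cell mass factor Pou5f1 were high in all 8 arrays, with log2 intensities of 14.70 to 15.10 and 14.41 to 14.62. Not every listed keratin was high. Krt19 was at 2.36 to 4.02 in CMF and 2.38 to 2.40 in untreated pools, called Present on 1 CMF and 0 untreated arrays. The labels tag 7 of the 8 arrays as female and give no sex for the other, yet the Y-linked gene Eif2s3y was called Present on all 8, at log2 10.42 to 11.33, as was Xist, the RNA of the silenced X chromosome, at 13.38 to 14.48. The tag therefore did not describe the embryos of the pools. Between 47.9% and 50.8% of probe sets were called Present per CMF array and between 47.9% and 49.0% per untreated array (exact permutation p = 0.457, two-sided, smallest possible p 0.0286). The 3 prime to 5 prime ratio of Gapdh, a measure of RNA length, averaged 3.74 ± 0.370 in CMF and 3.69 ± 0.472 in untreated arrays (SD, n = 4, exact permutation p = 0.83). None of the 8 arrays stood apart by its mean correlation with the other arrays, which was 0.995 or higher for each. At low signals untreated replicate 3 did stand apart. With it left out, the groups separated for 38.5% of genes not called Present on all 8 arrays. With any other array left out, that share was at most 7.18%.

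No gene passed the test between CMF and untreated blastocysts, and for most genes a difference of 2-fold lay outside the interval. Limma, fitted over all 20 arrays, called 0 of 25553 probe sets (0%) at an adjusted p under 0.05, and the lowest adjusted p was 1. An unadjusted p under 0.05 was reached by 258 probe sets (1.01%), fewer than the share of 0.05 that would pass where nothing differs. Of these, 159 (0.622%) were higher and 99 (0.387%) lower in CMF. This split depended on the scaling, being 64 higher and 133 lower with the medians of the arrays made equal, and 223 higher and 360 lower with the intensities of the array software. Ordinary least squares called 0 as well and had 246 at an unadjusted p under 0.05. In limma that count was 367 on the 8 arrays alone and 406 without CMF_acid replicate 5. With replicate number as a block on the 8 arrays it was 850 (3.33%). How far the share lay under 0.05 thus depended on the fit.

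For each of 12025 genes the tested probe set of highest mean level stood for the gene. The 95% interval of the difference lay within 2-fold in either direction for 11704 of them (97.3%) and within 1.41-fold for 8868 (73.7%). The share within 1.41-fold was 71.2% for genes called Present on all 8 arrays and 82.7% for the 2688 others. A narrow interval at a signal near background does not show an unchanged transcript. The median size of the difference was 0.05 on the log2 scale, and 95% of genes differed by less than 0.25. Among the 9337 genes called Present on all 8 arrays, 0 differed by more than 2-fold and 41 by more than 1.41-fold. The pools of the groups were about equally variable, with a median SD of 0.135 in CMF and 0.144 in untreated. Equalising the array medians moved every difference down by 0.04, so the sign of a smaller difference, and with it the counts of higher and lower members below, depends on the scaling. The same holds for small differences within same-numbered pairs, since the medians of paired arrays also differed.

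**Figure D1:**
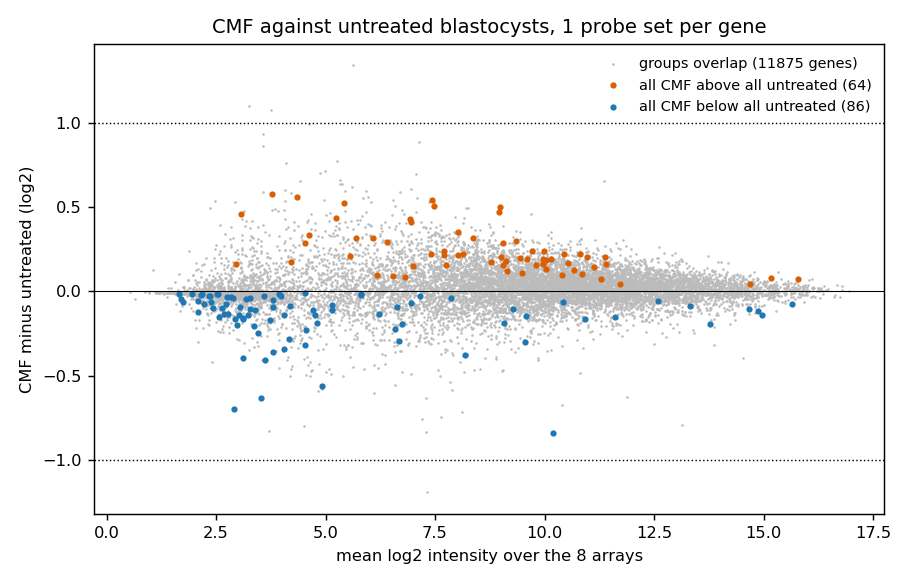
Difference between CMF and untreated blastocysts (log2, vertical axis) against the mean log2 intensity over the 8 arrays (horizontal axis), with a point per gene for 12025 genes. Coloured points are the 64 genes with all 4 CMF pools above all 4 untreated pools and the 86 with all 4 below, dotted lines mark a 2-fold difference, and nearly all points lie inside them.

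Genes of the adherens junction, where E-cadherin acts, stood at nearly the same level with and without the exposure. Of the 16 listed cadherins, catenins and nectins, 13 passed the detection filter, and 7 of these had a higher and 6 a lower mean in CMF, with a median difference of 0.00. Over all genes 53.3% were higher, 46.7% were lower and the median was 0.01. In the CMF pools Cdh1, which encodes E-cadherin, had log2 intensities of 14.28, 14.24, 14.37 and 14.29 in replicates 2 to 5, and in the untreated pools 14.35, 14.14, 14.41 and 14.44. All CMF values lay within the range of the untreated ones. The difference was -0.04 ± 0.11 (SE, n = 4 per group, as for all limma estimates here), with a 95% interval of -0.27 to 0.19.

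The catenins lay within the spread of the untreated pools as well. Alpha-catenin Ctnna1, which connects the complex to actin, was at 15.99 to 16.08 in CMF and 15.98 to 16.09 in untreated pools, with an interval of -0.10 to 0.10. Beta-catenin Ctnnb1 was at 14.50 to 14.57 in CMF and at 14.34 to 14.64 in untreated pools, with an interval of -0.39 to 0.44. For p120-catenin Ctnnd1, which keeps E-cadherin at the membrane, the untreated pools spanned 11.77 to 12.52 and the CMF pools 12.17 to 12.44. In each of these catenins the CMF pools overlapped the untreated pools throughout. Plekha7, a junction protein that binds p120-catenin, was the member farthest from 0, at 8.78, 8.53, 8.36 and 8.09 in CMF and 8.93, 8.67, 8.54 and 8.42 in untreated pools. The groups overlapped, but within every replicate number the CMF pool was the lower, with differences of -0.33 to -0.14. Its difference was -0.20 ± 0.18, with an adjusted p of 1 in limma, and the other tested probe set of the gene had the opposite sign.

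Desmosomes, tight junctions and gap junctions also overlapped between the groups. Of the 10 tested desmosome genes 6 were higher, with a median of 0.00, and the linker desmoplakin Dsp had an interval of -0.23 to 0.23 and the cadherin Dsg2 one of -0.22 to 0.22. Pkp4, a plakophilin-related protein, was at 12.25 to 12.62 in CMF and 12.12 to 12.55 in untreated pools and was higher in CMF in every same-numbered pair, by 0.03 to 0.19. Over all genes 5.25% were higher in all 4 pairs and 8.59% lower, and these shares are the background for single genes with that pattern. Of the 16 tested tight junction genes 8 were higher, with a median of 0.01. Tjp1, the scaffold ZO-1, had an interval of -0.10 to 0.14.

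Occludin Ocln, a strand protein of the tight junction, had the widest difference of its list at 0.30 ± 0.30. Its levels were 7.78, 8.29, 8.05 and 8.36 in CMF and 7.15, 7.71, 8.33 and 8.06 in untreated pools. The untreated pools alone spanned over 2-fold, from 7.15 to 8.33, and the interval of -0.32 to 0.93 covers differences in either direction. Claudin Cldn6 spanned 9.65 to 10.53 in CMF and 9.86 to 10.28 in untreated pools. Of 11 listed gap junction genes 4 were tested, and Gja1, which encodes connexin 43, had an interval of -0.12 to 0.14.

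**Figure D2:**
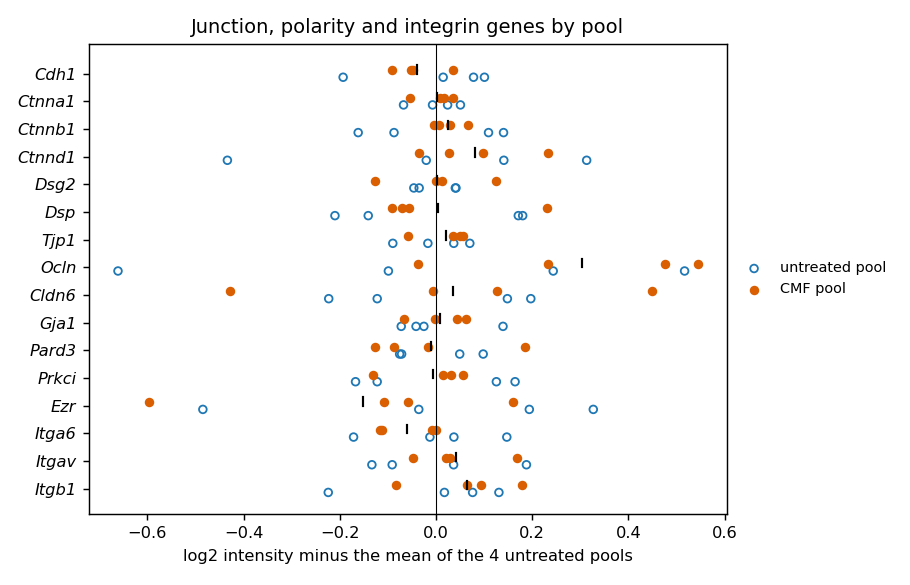
Log2 intensity of 16 junction, polarity and integrin genes in each pool, as the distance from the mean of the 4 untreated pools (horizontal axis, log2), with filled points for CMF pools, open points for untreated pools and a tick at the CMF mean. CMF and untreated pools overlap for every gene shown, with the widest spread for Ocln.

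Polarity genes, which set up the apical and basal sides of the compacting blastomere, had 12 of 20 tested members higher and a median of 0.04. Atypical protein kinase C iota Prkci had an interval of -0.18 to 0.17 and the scaffold Pard3 one of -0.21 to 0.19. Pard6a, a partner of that kinase, was at 8.93, 9.15, 9.02 and 8.98 in CMF and 8.84, 8.98, 8.76 and 8.87 in untreated pools, higher in every same-numbered pair by 0.09 to 0.26. The list also holds the genes of ezrin, radixin and moesin, which tie the membrane to actin. Moesin Msn differed by 0.09 ± 0.22. Ezrin Ezr was lower in CMF in every pair, with differences of -0.39 to -0.03, although its pools spanned 11.83 to 12.59 in CMF and 11.94 to 12.76 in untreated, with a difference of -0.15 ± 0.20.

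Radixin Rdx, of the same protein family, was the only polarity gene at an unadjusted p under 0.05, against 0.308% of all genes on the lower side. It stood at 13.80, 13.64, 13.89 and 13.76 in CMF and at 14.02, 13.82, 14.00 and 14.08 in untreated pools. The CMF pool of replicate 4 lay above the untreated pool of replicate 3, so the groups overlapped by that pair. The difference was -0.21 ± 0.08 with an interval of -0.37 to -0.05, and both other tested probe sets had the same sign, but the gene was not called (adjusted p of 1 in limma).

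Genes of the actin cytoskeleton and its anchors at the membrane came next. Of 24 tested genes of the actin cytoskeleton 17 were higher, with a median of 0.02, and 0 were at an unadjusted p under 0.05. Beta-actin Actb had an interval of -0.08 to 0.11, the tropomyosin Tpm3 one of -0.06 to 0.10, and the non-muscle myosin Myh9 one of -0.16 to 0.20. Rhoa, the GTPase that controls contractility, was at 14.00 to 14.05 in CMF and 13.87 to 14.03 in untreated pools. Averaged over its tested probe sets, its difference turned from 0.09 to -0.08. Of 21 tested integrins and focal adhesion genes 10 were higher, with a median of -0.01, and Itga6, the laminin receptor subunit, had an interval of -0.36 to 0.24, while that of Itgb1, the shared beta subunit, was wider at -0.49 to 0.62.

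Genes that move and sense calcium had no member past the test either. Of 23 tested channels, pumps and exchangers 14 were higher, with a median of 0.02. Atp2a2, the pump that fills the calcium store of the endoplasmic reticulum, was at 14.59, 14.73, 14.77 and 14.80 in CMF and at 14.48, 14.72, 14.54 and 14.78 in untreated pools. It was higher in each pair, by 0.01 to 0.23, and all 4 of its other tested probe sets had the same sign, while its interval of -0.07 to 0.25 included 0. In replicates 3 and 5 the pair difference was 0.01, smaller than the gap between the array medians. Those medians were 7.87 in CMF and 7.83 in untreated replicate 3, and 7.78 and 7.76 in replicate 5. Atp2b1, which pumps calcium out across the plasma membrane, had an interval of -0.47 to 0.20. Stim1, the sensor that opens the entry channels when the store is empty, had one of -0.39 to 0.66.

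Casr, the receptor for extracellular calcium, had the widest difference of the calcium transport list, -0.50 ± 0.33, at a low signal. It stood at 4.62, 4.60, 4.22 and 4.16 in CMF and 5.61, 4.36, 4.25 and 5.39 in untreated pools, so that untreated replicates 2 and 5 were high and the others lay among the CMF values. It was called Present on 2 CMF and 3 untreated arrays. Among 35 tested calcium-binding proteins and their effectors 24 were higher, with a median of 0.03, and 0 were at an unadjusted p under 0.05. The chaperone calreticulin Calr had an interval of -0.16 to 0.23.

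Magnesium transport genes were divided evenly, 9 of 18 higher and 9 lower, with a median of 0.00. Trpm7, a channel for magnesium and calcium fused to a kinase, was at 12.95 to 13.29 in CMF and 12.85 to 13.44 in untreated pools. The transporter Slc41a1 had an interval of -0.12 to 0.35 and Magt1, which also carries magnesium, one of -0.44 to 0.17. Nipa1, another magnesium transporter, was farthest from 0 at 0.33 ± 0.17, with a low signal of 3.85 to 4.57 in CMF and 3.31 to 4.20 in untreated pools. These groups overlapped.

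Immediate early genes answer a stimulus within minutes and were measured here long after the exposure. They had 11 of 20 tested members higher, with a median of 0.01. Ier3, a regulator of cell survival, was the single member at an unadjusted p under 0.05, where 0.723% of all genes were on the higher side. Its levels were 9.46, 8.99, 9.08 and 9.27 in CMF and 8.86, 8.85, 8.68 and 8.53 in untreated pools. Every CMF pool was above every untreated pool, a pattern that 0.532% of all genes showed. The difference was 0.47 ± 0.21, a ratio of 1.39, and the limma adjusted p was 1. The transcription factor Jun spanned 8.44 to 9.51 in CMF and 8.38 to 9.10 in untreated pools. Fosl1, a partner of Jun, was at 5.35 in untreated replicate 2 and at 6.64 to 7.24 in the other 7 pools.

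Genes of endoplasmic reticulum stress had 12 of 20 members higher and a median of 0.02, and the chaperone Hspa5 had an interval of -0.33 to 0.31. Targets of p53, which guards the genome, were the list whose median lay farthest from 0. Of 25 tested members 19 were lower, with a median of -0.14, and 0 were at an unadjusted p under 0.05. The mean log2 level over the members was 9.15, 9.09, 9.66 and 9.17 in CMF and 9.49, 9.24, 9.48 and 9.30 in untreated pools. CMF replicate 4 was the highest of all 8 pools and the other CMF pools were the 3 lowest. Cdkn1a, the cell cycle inhibitor p21, was at 10.65, 10.70, 11.62 and 10.54 in CMF and 11.29, 11.18, 11.28 and 10.60 in untreated pools. Phlda3, an inhibitor of Akt, had the same pool order at the top, with 9.41 in CMF replicate 4 against 7.56 to 8.13 in the other CMF pools and 8.32 to 8.96 in untreated pools. In the comparison of CMF_acid with acid the median of these targets was 0.06, with 14 of 25 higher.

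The lineages of the blastocyst were compared through their markers. Since each value comes from a whole pool, fewer cells of a type and less RNA per cell cannot be told apart. Trophectoderm markers had 11 of 23 tested members higher and a median of -0.01. The lineage factor Cdx2 had an interval of -0.22 to 0.30, Krt8 one of -0.12 to 0.13 and Krt18 one of -0.25 to 0.23. Markers of the inner cell mass and epiblast had 15 of 23 higher and a median of 0.02. Pou5f1 had an interval of -0.10 to 0.20, Sox2 one of -0.14 to 0.18 and Nanog one of -0.28 to 0.40. Dppa5a, an RNA-binding protein of pluripotent cells, was at 15.79 to 15.89 in CMF and 15.75 to 15.76 in untreated pools, which did not overlap, with a difference of 0.07 ± 0.04. With the array medians made equal that difference was 0.04.

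Primitive endoderm markers, of the layer that faces the cavity, had 12 of 20 lower and a median of -0.01. Gata6, a factor of that lineage, was at 13.21 to 13.49 in CMF and at 13.31 to 13.43 in untreated pools. Sox17 varied far more, at 7.37, 5.88, 7.41 and 6.24 in CMF and 7.18, 4.79, 7.34 and 6.67 in untreated pools. The order of its replicate numbers was the same in both groups, with replicate 3 the lowest and replicate 4 the highest, and the interval of -1.14 to 1.60 reached beyond 2-fold on either side. Serpinh1, a chaperone of collagen folding, was at 6.77, 5.69, 8.24 and 6.77 in CMF and 8.06, 7.39, 7.75 and 7.61 in untreated pools. CMF replicate 4 was the highest of the 8 pools and the other CMF pools the 3 lowest. The gene was called Present on 1 CMF and 4 untreated arrays, so the difference of -0.84 ± 0.42 is not a measured size on the CMF side.

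Genes of cavity formation had 6 of 9 tested members higher and a median of 0.02. The 3 lower members were lower in CMF in all 4 same-numbered pairs, as were 8.59% of all genes. Aqp8, an aquaporin, had the widest difference of the list, -0.80 ± 0.56, at a low signal. It was called Present on 1 CMF and 3 untreated arrays. Aqp3, a water channel of the trophectoderm, stood at 11.55, 11.67, 11.62 and 11.66 in CMF and 11.62, 11.80, 11.95 and 11.94 in untreated pools. It was lower in CMF in each same-numbered pair, with differences of -0.33 to -0.07, while the groups overlapped, and its interval was -0.43 to 0.03. The sodium pump subunit Atp1b1 had an interval of -0.19 to 0.27. Cumulus and granulosa cells enclose the oocyte before fertilisation. Of their 18 listed markers 6 were tested and 3 or 4 of these were called Present per array. Their summed level was 9.43 to 9.71 on the log2 scale in CMF and 8.96 to 9.85 in untreated pools, most of it from Amhr2. By member, 1 was higher and 5 were lower, with a median of -0.02. Amhr2, the receptor of anti-Müllerian hormone, differed by 0.16 ± 0.26 and Inhbb, an inhibin subunit, by -0.83 ± 0.47 at a low signal of 2.95 to 5.17, with all 4 pairs lower in CMF. The gonadotropin receptor gene Fshr did not pass the detection filter. Of 18 oocyte genes 11 were tested, with 8 higher, a median of 0.04 and a summed level of 14.66 to 14.82 in CMF and 14.68 to 14.74 in untreated pools. Nlrp14, an oocyte gene of the NLRP family, had the widest difference of that list at 0.36 ± 0.21.

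**Figure D3:**
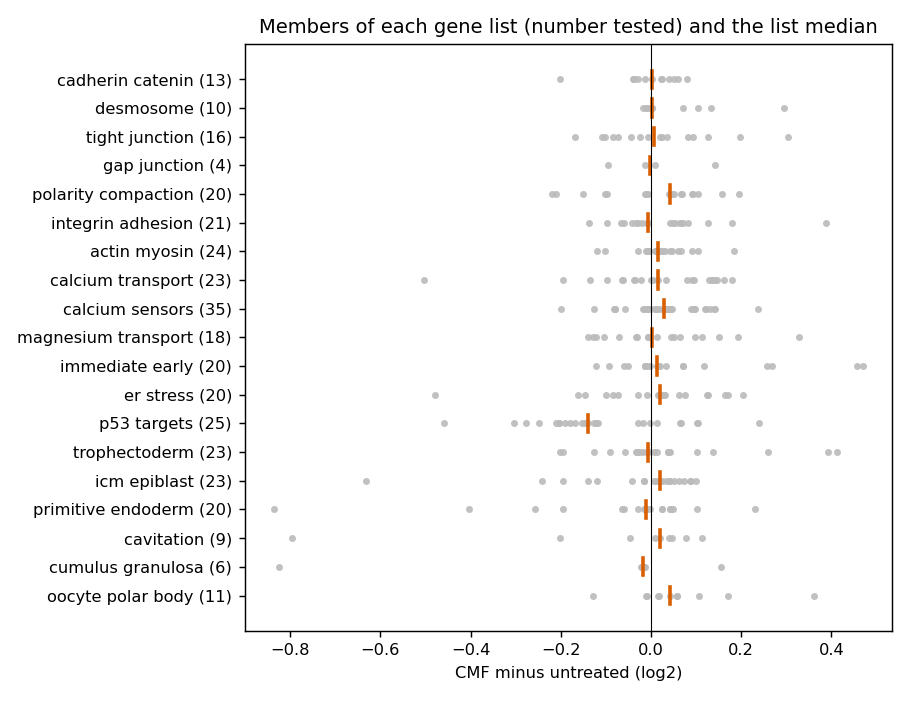
Difference between CMF and untreated pools (log2, horizontal axis) for each tested member of 19 gene lists (points) and the median of each list (bar), with the number tested in brackets. List medians lie between -0.02 and 0.04 except for the p53 targets at -0.14, and no member passed the test.

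The genes that led the comparison were not called, and their values are given as a description of what lay at the edge of the spread. Among 12025 genes the groups did not overlap for 150 (1.25%), under the share of 0.0286 of array assignments that separate 4 from 4. Of these, 64 (0.532%) had all 4 CMF pools above all 4 untreated pools and 86 (0.715%) had all below, as shares of all genes. The share of 0.0286 assumes that the 8 pools are exchangeable. Most same-numbered pools varied together in part, as given below, so it is not an exact reference. Without untreated replicate 3 these counts were 328 and 1278, and 1027 of the latter genes were not called Present on all 8 arrays. Among those called Present on all 8 arrays there were 60 (0.643%) and 38 (0.407%). Fam160b1 had the lowest unadjusted p of the higher genes, 7.71e-04 in limma. It was at 9.67, 9.66, 9.76 and 9.72 in CMF and 9.40, 9.56, 9.54 and 9.52 in untreated pools. The pools did not overlap, both other tested probe sets had the same sign, and the difference of 0.19 ± 0.05 is a ratio of 1.14. Dctn4, a subunit of dynactin, the cofactor of the dynein motor, differed by 0.18 ± 0.05, but 1 of its 4 other probe sets had the same sign.

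Hook1, an adapter that joins cargo to dynein, was at 9.19, 9.26, 9.11 and 9.42 in CMF and 8.86, 8.68, 8.78 and 8.64 in untreated pools. The lowest CMF pool, at 9.11, lay above the highest untreated pool, at 8.86. The difference was 0.50 ± 0.19, and its other tested probe set had the opposite sign. Calcoco1, an autophagy receptor, was at 7.61, 7.94, 7.84 and 7.49 in CMF and 7.15, 7.28, 7.26 and 7.18 in untreated pools, with a difference of 0.51 ± 0.18 and an opposite sign in the other probe set. Arhgap39, a GTPase-activating protein, was at 7.57, 7.76, 7.74 and 7.76 in CMF and 7.05, 7.50, 6.86 and 7.25 in untreated pools, differing by 0.54 ± 0.19. Untreated replicate 3, at 7.50, lay just below CMF replicate 2. Col17a1, a transmembrane collagen of hemidesmosomes, differed by 0.52 ± 0.19 at a level of 5.07 to 6.02. Ccdc126 differed by 0.24 ± 0.08 with the series values and by -0.09 with the array software's intensities, so its direction depended on the summary.

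On the lower side, Slc15a2, a proton-coupled transporter of small peptides, had the largest difference among genes called Present on all 8 arrays whose groups did not overlap. It was at 9.68, 9.50, 10.21 and 9.67 in CMF and at 10.39, 10.32, 10.71 and 11.01 in untreated pools. The CMF mean was 0.558 times the untreated mean, a difference of -0.84 ± 0.55 whose interval of -2.01 to 0.33 included 0, since the gene varied widely within the other groups. Of its 2 other tested probe sets 1 had the same sign. Bcl2l11, which encodes the pro-apoptotic protein Bim, was at 9.49, 9.30, 9.47 and 9.32 in CMF and 9.72, 9.61, 9.71 and 9.73 in untreated pools. Its difference was -0.30 ± 0.17, with 2 of 3 other probe sets of the same sign. Timp1, an inhibitor of matrix metalloproteinases, was at 4.83, 4.55, 4.82 and 4.40 in CMF and 5.36, 5.16, 5.43 and 4.88 in untreated pools, differing by -0.56 ± 0.30.

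Sel1l3 was at 7.18, 7.28, 7.98 and 7.91 in CMF and 8.02, 7.85, 8.31 and 8.50 in untreated pools, a difference of -0.58 ± 0.20 with overlapping groups. Sema5a, a guidance protein of the semaphorin family, differed by -0.47 ± 0.17 and the Wnt pathway factor Tcf7l2 by -0.38 ± 0.22. Both other probe sets of Tcf7l2 had the same sign, and 1 of 2 for Sema5a. Hesx1, a homeobox factor, had a difference of -0.63 ± 0.22, but it lay at a log2 signal of 3.16 to 3.25 in CMF and 3.27 to 4.16 in untreated pools, near the floor of the scale. Of the genes lower in all 4 CMF pools, 48 of 86 were not called Present on every array, and so many of these differences were between signals at or near background.

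**Figure D4:**
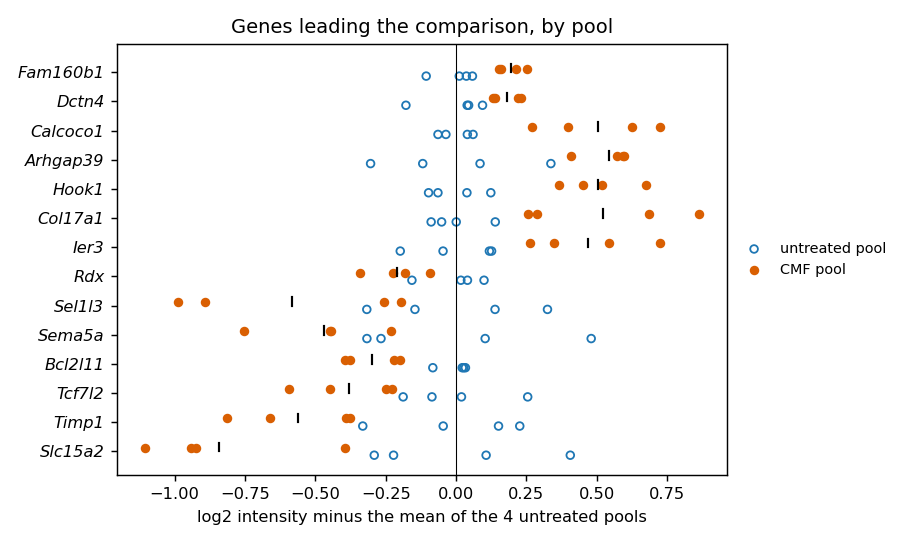
Log2 intensity of 14 leading genes in each pool, as the distance from the mean of the 4 untreated pools (horizontal axis, log2), with filled points for CMF pools, open points for untreated pools and a tick at the CMF mean. The CMF pools lie to the right for the upper 7 genes and to the left for the lower 7, where Rdx, Sel1l3 and Sema5a overlap, and no gene passed the test.

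Pools of the same number were then set side by side. Of the squared deviations of all genes over the 8 arrays, 9.96% lay between CMF and untreated (1 degree of freedom), 55.8% between replicate numbers (3 degrees of freedom) and 34.2% in the remainder (3 degrees of freedom). The deviations of a CMF pool from its group mean correlated over genes with those of the same-numbered untreated pool at 0.239, 0.288 and 0.219 for replicates 2, 3 and 4, but at 0.0531 for replicate 5, which matched untreated replicate 4 better. With the replicate number as a block on the 8 arrays, limma again called 0 probe sets, and 850 (3.33%) had an unadjusted p under 0.05, the lowest adjusted p being 0.979.

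The paired view lowered the p-value of some leading genes and raised that of others. The paired limma p was 0.0701 against 0.00369 unpaired for Dctn4, and 0.0627 against 0.00562 for Dcaf8l. For Timp1 the differences between a CMF pool and its untreated partner ran from -0.62 to -0.48, and the paired limma p was 1.05e-04 against 0.0764 unpaired, with a paired adjusted p of 0.979. In the 4 pairs Bcl2l11 differed by -0.41 to -0.23 and Slc15a2 by -1.35 to -0.50. On the higher side, Calcoco1 was above its partner by 0.31 to 0.67 and Hook1 by 0.33 to 0.77. The groups of Timp1, Bcl2l11, Slc15a2, Calcoco1 and Hook1 did not overlap, so any pairing gives each of them 4 differences of the same sign. Over all genes 1664 (13.8%) had the same sign in all 4 pairs, so a shared sign alone does not set these genes apart.

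The same medium was also used on embryos that received acid, which gave a second comparison on 8 other arrays. Limma called 0 probe sets (0%) in CMF_acid against acid and 0 (0%) for the difference between the CMF effects without and with acid. Over 12025 genes the differences without and with acid had the same sign for 39.9%, with a Pearson r of -0.0890 and a Spearman rank correlation of -0.138 across genes, which are not independent of each other. CMF_acid replicate 5 stood apart from the other arrays, with a limma array weight of 0.0921. Without it the share was 43.3%, r was -0.0291 and the rank correlation -0.0641. Among genes called Present on all 8 CMF and untreated arrays the share was 44.0%. Without CMF_acid replicate 5 it was 48.1% in these genes, with an r of -0.0244. The shares over all genes were thus lowered by genes not called Present on all of those arrays. Of the 64 genes that were higher in all CMF pools, 20 were also higher with acid, and 27 when that array was left out. Of the 86 lower genes 21 were also lower, and 28 without that array.

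Of the 25 genes named for the lowest p or the largest difference, 6 had the same sign with acid, 7 when CMF_acid replicate 5 was left out, and 5 under both settings. These 5 were Dctn4, Was, Tspyl2, Slc13a5 and Bcl2l11. Dctn4, at 0.18 without acid, was at 0.02 with it and at 0.03 without CMF_acid replicate 5. Slc13a5, a citrate transporter, was at -0.32 without acid and at -0.18 and -0.19 with it. Hook1, at 0.50 without acid, was at -0.43 with it, and at -0.26 without CMF_acid replicate 5. Ier3, at 0.47, was at -0.26 and -0.02. Fam160b1 was at -0.05 and -0.06, and Calcoco1 at -0.16 and -0.08. On the lower side Rdx was at 0.07 and 0.02 and Timp1 at 0.25 and 0.11. Slc15a2 was at 0.03 and, without CMF_acid replicate 5, at -0.40. Bcl2l11 was at -0.08 and -0.14. In none of these genes was the difference between the effects called (limma adjusted p of 0.779 or higher over all probe sets).

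**Figure D5:**
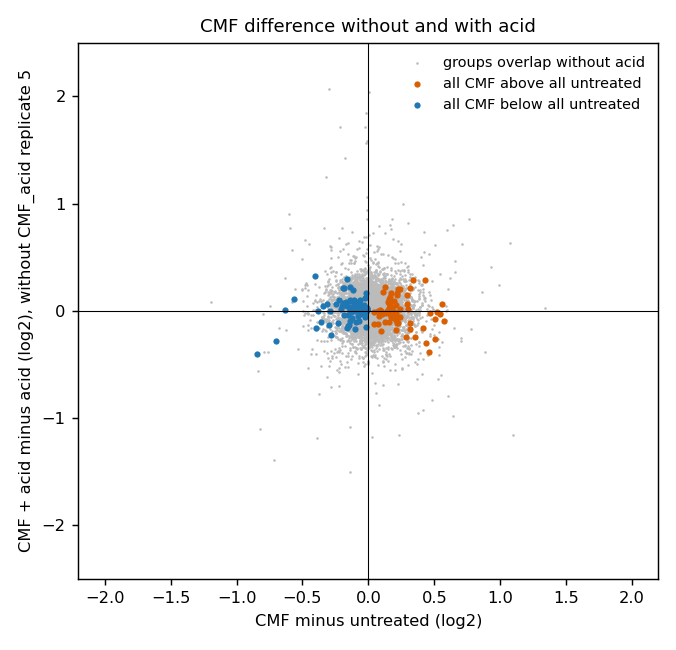
Difference of CMF_acid minus acid without CMF_acid replicate 5 (vertical axis, log2) against CMF minus untreated (horizontal axis, log2), with a point per gene. Genes apart between CMF and untreated pools, coloured as in the plot against mean intensity, scatter on either side of 0 on the vertical axis, with 27 of 64 higher genes and 28 of 86 lower genes on the same side.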

How the data were processed

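RNA of 20 pools was measured on 1-colour Affymetrix MOE430 2.0 arrays after linear amplification in repeated rounds. The deposited intensity values of the series table, on a linear scale, were made by the authors with GC-RMA, per the series design text, which corrects background by probe sequence and normalizes arrays together. Log2 was taken here. The deposited array tables hold the array software's intensity and, per the file headers, a p-value of detection with its call. No version of that software was found in these sources.

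Control probe sets (64 of 45101) were left out, and 25553 called Present on 3 or more of 20 arrays were tested with limma 3.58.1 in R 4.3.3 on 5 group means. Tests were two-sided with Benjamini-Hochberg adjustment over all tested probe sets, and a call needed an adjusted p under 0.05. The script was tested on simulated data. The number of arrays limits the precision. Symbols came from the platform annotation, updated through the mouse gene table, with 21292 tested probe sets having 1 symbol, 619 several and 3642 none.

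Named were 8 genes per direction of lowest p with all 4 CMF arrays on the same side of the untreated mean, 6 per direction of largest difference among genes Present on all 8 arrays with separate groups, and from each of 19 lists its anchors and up to 2 members per direction of lowest p. The text gives most of these. The comparison, lists and tests were chosen with earlier results of these data known, so no pattern here is independent support for those results. Sex-linked genes and array-level patterns were chosen after values were seen. The alternatives are given in the closing section. No sequence is shown, since no result turns on one.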

Additional observations from a re-analysis of the deposited data

Results flagged for a closer look

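Each group's 4 values of the 134 tested genes that the naming rule gives, and of 5 array measures, were searched for an array far from the other 3. Of 278 such groups 18 held one, where about 1 in 20 is found by chance, 12 in CMF and 6 in untreated pools. All values are log2 intensities. CMF replicate 4 had the highest Cdkn1a at 11.62 against 10.54 to 10.7, the highest Dsp at 14.64 against 14.32 to 14.36 and the highest Pkp2, another desmosome gene, at 13.4 against 13.22 to 13.24. It also had the highest Tpm2, a tropomyosin, at 9.316 against 8.711 to 8.773. At low signals it had the highest Krt19, a keratin, at 4.023 against 2.357 to 2.387, the highest Dcaf8l at 4.637 against 3.823 to 3.957, the highest Egr1 at 1.798 against 1.76 to 1.766 and the lowest Selenom at 3.015 against 3.325 to 3.344. CMF replicate 2 had the highest Was at 5.195 against 4.373 to 4.513 and the lowest Arhgap39 at 7.572 against 7.736 to 7.762. CMF replicate 5 had the highest Nlrp5, an oocyte gene, at 6.558 against 6.244 to 6.286 and the lowest Slc41a2, a magnesium transporter, at 5.056 against 5.524 to 5.576.

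Among untreated pools, replicate 5 had the lowest Cdkn1a at 10.6 against 11.18 to 11.29, the highest Vmn2r29 at 5.09 against 4.511 to 4.596 and the highest Jam3, a junction adhesion molecule, at 2.805 against 2.513 to 2.54. Untreated replicate 3 had the lowest Bcl2l11 at 9.61 against 9.715 to 9.726 and the highest Pou5f1 at 14.59 against 14.41 to 14.44. Untreated replicate 4 had the lowest Nlrp5 at 6.092 against 6.265 to 6.285.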

How the results depend on the processing

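The count of called probe sets was 0 under each setting run except without untreated replicate 5, where 1 was called (range 0 to 1 over the arrays left out in turn). That probe set, of Zfp78, lay at a mean log2 of 3.74, and was at 3.35 in the omitted pool and 4.15 to 4.27 in the other untreated pools (limma adjusted p = 4.56e-04). The 258 probe sets at an unadjusted p under 0.05 became 583 with the array software's intensities, 596 with array weights, 406 without CMF_acid replicate 5, 148 among those Present on all 8 arrays and 123 with a gene's probe sets averaged, and ranged from 217 to 589 with 1 array left out, the highest without untreated replicate 3. The replicate number as a block gave 442 on 20 arrays and 850 on 8, with 0 calls in each and no other call to change. The numbers do not pair the pools by every pair's correlation, so this is a hint from the data and not the design. The 150 genes with separate groups became 209 to 1606 with 1 array left out, where a smaller group separates more easily whichever array is omitted. The highest was without untreated replicate 3, with 1278 lower in CMF, of which 1027 were not called Present on all 8 arrays. The cause was not tested. Ccdc126 reversed to -0.0883 with the software's intensities. Of 1701 values of 90 named genes under the settings, 1693 were counted as the same, 7 as moved and 1 as reversed. For the 25 genes named by rank, the same meant a kept direction. For the other genes it meant a move smaller than the spread, whatever the sign. Sign changes in those genes, such as that of Rhoa, were not counted as reversed. Many of these outcomes were fixed in advance. A gene's difference cannot change with 8 arrays only, a replicate block, ordinary least squares, another detection filter or without CMF_acid replicate 5. A gene whose groups do not overlap cannot reverse when 1 array is left out. The 1693 is therefore not a measure of stability. The comparison of CMF_acid with acid and the difference between the effects had 0 calls in each setting run. Single low signals near background limit many of the lower differences.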

Other observations

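Genes of the sex chromosomes were looked at after their values were seen. Of 6 tested Y-linked genes 5 had a higher mean in CMF, with a median difference of 0.39 on the log2 scale, and 0 were at an unadjusted p under 0.05. The translation factor subunit Eif2s3y was at 10.48, 10.99, 11.18 and 11.33 in CMF and 10.42, 10.45, 11.14 and 10.73 in untreated pools. The histone demethylases Kdm5d and Uty differed by 0.60 and 0.47 and the ubiquitin protease Usp9y, at a low signal, by 0.86, each with all 4 same-numbered pairs higher in CMF. Xist was lower in CMF in all 4 pairs, with differences of -0.30 to -0.04. In the comparison of CMF_acid with acid the difference was -0.38 for Eif2s3y, -0.61 for Kdm5d, -0.18 for Uty and 0.25 for Xist, on the other side of 0, but 0.32 for Usp9y, on the same side. Eif2s3y and Uty each had 1 other tested probe set, of the opposite sign in CMF against untreated.

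Of the 12025 genes 410 (3.41%) were on the X chromosome, and 46.1% of these were higher in CMF, against 53.3% of all genes. Of the 8 higher genes of lowest p 4 were X-linked, namely Dcaf8l at 0.58, the dystrophin relative Drp2 at 0.17, Tbc1d8b at 0.65 and Tspyl2 at 0.39, and 0 of the 8 lower ones were. Dcaf8l, Drp2 and Tbc1d8b were called Present but at low log2 signals, of 3.32 to 4.64, 2.83 to 3.17 and 3.61 to 5.11. Tspyl2 was called Present on 2 CMF and 1 untreated arrays. Of the 87 genes higher at an unadjusted p under 0.05, 10 were X-linked, as were 3 of the 37 lower ones. Whether the share of male embryos in the pools has a part in these values was not tested.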
